A study of Mus musculus with 5 samples.

Results

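The genes described here are 7 matrix metalloproteinases (Mmp2, Mmp3, Mmp9, Mmp12, Mmp13, Mmp14 and Mmp19) and 3 tissue inhibitors of metalloproteinases (Timp1, Timp2 and Timp3), 10 of the 33696 genes measured. They were taken by name, and all 10 were found in the single-cell RNA counts of MC38 tumors. MC38 is a mouse colon carcinoma line, and 1000000 cells were implanted under the skin of male C57BL/6J mice aged 8 to 10 weeks. All mice received isotype antibody or CPI, the pair of checkpoint antibodies against PD-1 and CTLA4, at days 3, 6 and 9, then DPBS or 20 mg/kg of ABT-317, an inhibitor of the kinase JAK1, on day 12. The 4 groups were therefore isotype, CPI, isotype + ABT-317 and CPI + ABT-317, and tumors were taken on day 15. The series' design counts these days from implantation, and the paper's single-cell methods also place the harvest on day 15 after implantation. The paper's figure legend for the MC38 tumors instead counts the days from enrollment at a set tumor volume. Which count holds for these samples could not be settled. Live CD45+ and CD45- cells were sorted, mixed 1 to 1 and loaded as 2 reactions. Cells of a treatment were marked with 1 hashtag in each reaction, so any mice that shared a hashtag could not be told apart. The paper's legends give 3 tumors per group for sequencing and at least 3 mice per treatment group. How these mice were split over the hashtags, and whether the reactions held cells of different mice, is not given in the sources used here. The main tests take out the plain difference between the reactions. Their p-values therefore measure how far treatment differences vary between the 2 reactions, which may be technical.

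Matrix metalloproteinases are zinc enzymes that cut the proteins of the extracellular matrix and many cell-surface and secreted proteins. Most are secreted as inactive precursors and are activated by removal of a propeptide, whereas Mmp14 sits in the cell membrane and is an activator of the Mmp2 precursor. The TIMPs bind the active site and block it, Timp2 also takes part in the activation of Mmp2 by Mmp14, and Timp3 is held in the matrix. In tumors these genes are known from stromal fibroblasts, macrophages, neutrophils and the cancer cells themselves. Several of them are classic targets of AP-1, the dimers of Fos and Jun proteins.

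Mmp12, Mmp13 and Mmp3 lie close together on chromosome 9. In the GRCm38 annotation Mmp13 (ENSMUSG00000050578) spans chr9:7272514-7283331, Mmp12 (ENSMUSG00000049723) spans chr9:7344381-7369499 and Mmp3 (ENSMUSG00000043613) spans chr9:7445822-7455975, all on the plus strand. RefSeq promoter windows of GRCm38.p6, from 250 bases before to 50 bases after a start site, were at hand for 7 of the 10 genes, and the AP-1 motif TGANTCA, which reads the same on both strands, was found in those of 3. All 3 are the chromosome 9 neighbors, and the motif stood 46 bases before the start in Mmp3, 44 before the start of the second of 2 Mmp12 windows and 35 before the start in Mmp13. The sequences are shown because AP-1 genes moved with treatment in these cells, with the 7 bases of the motif in capitals and 10 bases on each side.
Mmp3, chr9:7445766-7445792, plus strand: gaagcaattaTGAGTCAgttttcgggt
Mmp12, chr9:7347320-7347346, plus strand: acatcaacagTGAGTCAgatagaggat
Mmp13, chr9:7272469-7272495, plus strand: cccaaagtggTGACTCAtcactatcat
The same letters were present in 2565 of 32851 windows (7.81%), so a match describes the sequence and is not by itself a site of binding. No match was found in the windows of Mmp14, Timp1, Timp2 and Timp3, nor in the first Mmp12 window.

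Reactions 1 and 2 held 37774 and 27582 barcodes, 435031691 and 377184807 UMIs (unique molecules), and 21307 and 15481 barcodes that passed the filters with exactly 1 hashtag. The median UMI count of the latter was 8246 and 10551. The cells were grouped into 60 clusters without any Mmp, Timp, Adam or Adamts gene, 40 clusters were given a class and 20 were not. The libraries shared 1416 cell barcodes. The largest class was named by what defined it: Ptprc-low cells had under 5 CPM (UMIs of a gene per 1000000 UMIs of the cells named) of Ptprc, the gene of CD45, and fitted no marker list. Epithelial markers were nearly missing in them, with Krt8 at 0.12 and 0.10 CPM and Epcam at 0.016 and 0.010 CPM, so they could not be called tumor cells by these markers. Some fibroblast markers were present in them, with Col3a1 at 923 and 981 but Col1a1 at 31.1 and 29.1 CPM, against 23874 and 26938 of Col1a1 in fibroblast-like cells. C1qa stood at 3484 and 4564 CPM in macrophage-like cells and Cd3e at 376 and 524 in T-like cells, and Pecam1 stood at 959 and 865 in endothelial-like cells.

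Levels of the 10 genes differed between the classes. Values below are CPM for reaction 1 and then reaction 2, and levels are compared between classes within a gene, not between genes. Summed over all treatments, fibroblast-like cells had the highest mean level of 7 of the 10 genes. Macrophage-like cells were highest for Mmp12, neutrophil-like cells for Mmp9 and endothelial-like cells for Timp3. Neighbors in the order of levels were called apart where the exact Poisson 95% intervals of both reactions did not overlap. These intervals cover counting error only. Of the 925 and 655 fibroblast-like cells, 858 and 607 came from CPI, so their levels were those of CPI tumors for the most part. Macrophage-like cells came mostly from isotype, with 3246 and 3242 cells against 341 and 209 from CPI. The order of classes is thus mixed with treatment.

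**Figure D1:**
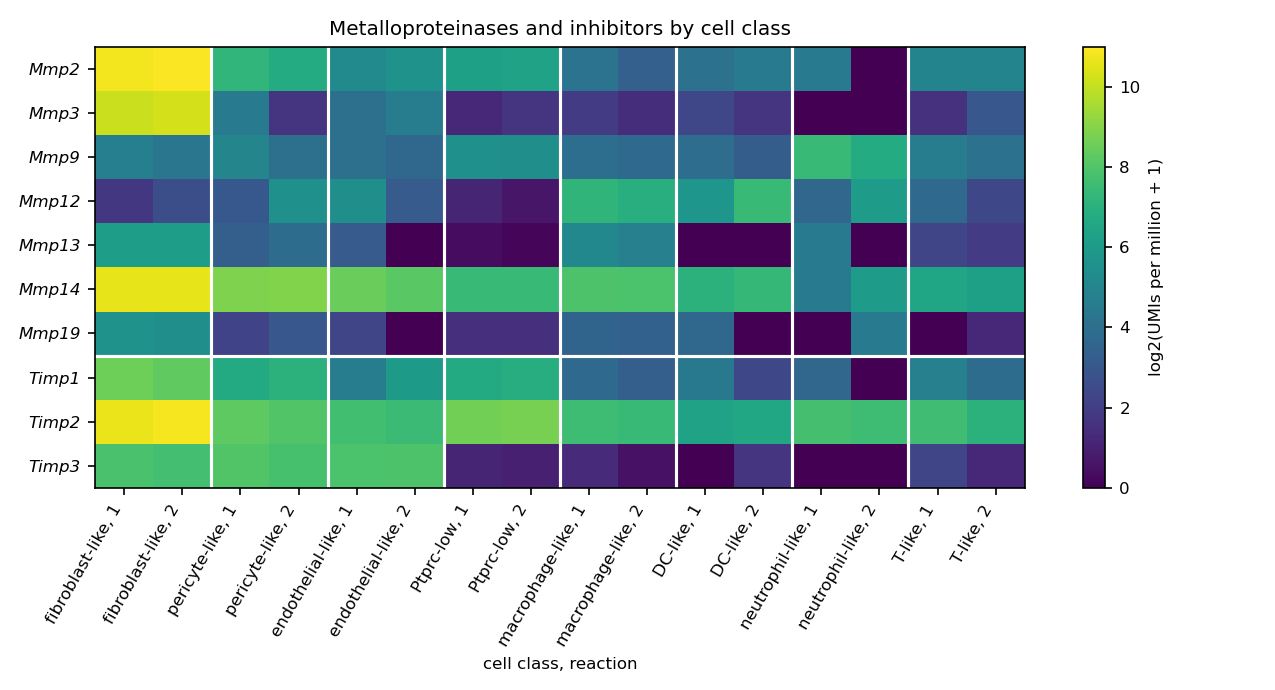
Level of each gene (rows) in each cell class and reaction (columns), as log2 of CPM plus 1; each column is the sum of all cells of a class with 1 hashtag in that reaction. Mmp2, Mmp3, Mmp14 and Timp2 are brightest in fibroblast-like cells, Mmp12 in macrophage-like and DC-like cells, and Timp3 in fibroblast-like, pericyte-like and endothelial-like cells.

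Mmp2, gelatinase A, stood at 1798 and 1971 in fibroblast-like cells. The next class, pericyte-like cells, was apart at 151 and 109, and Ptprc-low cells held 74.6 and 80.0, which overlapped with pericyte-like cells. T-like cells, which served as the background from free RNA, had 30.2 and 30.5. Macrophage-like cells were below this, at 17.1 and 9.26, so their Mmp2 was read as background. A UMI of Mmp2 was seen in 97.1% and 97.4% of fibroblast-like cells, at a median of 4316 and 5066 UMIs per cell, and in 4.28% and 2.55% of T-like cells, at 1128 and 1028. When every cell was thinned to 1000 UMIs, 78.1% and 81.2% of fibroblast-like cells, 8.58% and 9.05% of Ptprc-low cells and 3.33% and 2.41% of T-like cells held a UMI of Mmp2.

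Mmp9, gelatinase B, had its highest level in neutrophil-like cells at 170 and 107, but this rested on 15 and 5 UMIs and the intervals overlapped with those of Ptprc-low cells. Ptprc-low cells, with 8316 and 8393 UMIs, stood at 44.9 and 44.0. Fibroblast-like cells had 25.9 and 19.1 and T-like cells 23.4 and 16.6. Neutrophils are a known source of this enzyme, but only 65 and 40 such cells were found. Ptprc-low cells held 68.5% and 83.7% of all Mmp9 UMIs, near their 69.9% and 79.0% of the UMIs of all genes.

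Mmp3, stromelysin 1, was the gene most nearly limited to a single class. Fibroblast-like cells had 1123 and 1250, the next class, endothelial-like cells, had 15.9 and 23.7, and Ptprc-low cells had 1.34 and 2.29. Fibroblast-like cells made up 4.34% and 4.23% of cells and 1.72% and 1.495% of UMIs and held 76.8% and 81.3% of the Mmp3 UMIs. A UMI of Mmp3 was seen in 79.5% and 78.9% of them, and in 56.1% and 53.3% after thinning, against 0 and 0.40% of thinned T-like cells.

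Among the named classes Mmp13, collagenase 3, was found mostly in 2. Fibroblast-like cells stood at 71.2 and 71.8 and macrophage-like cells, apart from them, at 33.6 and 26.5. The remaining named classes had between 0 and 22.7, on few UMIs. Macrophage-like cells held 42.6% and 47.8% of its UMIs and fibroblast-like cells 26.6% and 26.2%. Clusters without a class held 25.2% and 22.4%.

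Mmp12, macrophage metalloelastase, was highest in macrophage-like cells, at 147 and 123. DC-like cells had 53.3 and 176 on 26 and 83 UMIs, of which 15 and 11 lay in a single cell, and overlapped with them. T-like cells had 12.7 and 4.16 and Ptprc-low cells 1.18 and 0.61. Macrophage-like cells held 66.0% and 70.1% of all Mmp12 UMIs. The gene was uneven among them, with a UMI in 11.4% and 11.9% of the cells, and in 6.87% and 6.74% after thinning, against 0.67% and 0.40% of thinned T-like cells.

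Mmp14, the membrane-bound activator, was the most widespread of the enzymes. It stood at 1545 and 1556 in fibroblast-like cells, at 466 and 480 in pericyte-like cells, at 358 and 292 in endothelial-like cells, at 240 and 237 in macrophage-like cells and at 168 and 173 in Ptprc-low cells. T-like cells had 87.8 and 76.3. Macrophage-like and Ptprc-low cells were apart in this order, and endothelial-like cells overlapped with the classes on both sides. Mmp19, summed over all treatments, stood at no more than 49.3 in any named class. It had 49.3 and 43.5 in fibroblast-like cells, 10.8 and 9.54 in macrophage-like cells and 0 and 1.39 in T-like cells. Within CPI alone the order was the reverse, with 134 and 122 in macrophage-like cells and 50.8 and 43.7 in fibroblast-like cells.

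Of the inhibitors, Timp1 stood at 382 and 317 in fibroblast-like cells, 104 and 132 in pericyte-like cells and 104 and 114 in Ptprc-low cells. Ptprc-low cells held 76.1% and 86.0% of its UMIs, against 69.9% and 79.0% of the UMIs of all genes. Timp2 stood at 1641 and 1837 in fibroblast-like cells and, apart from these, at 404 and 434 in Ptprc-low cells. Its level in T-like cells, 196 and 135, overlapped with that of macrophage-like cells, 191 and 170. By CPM alone the pooled macrophage level could not be told from background. T-like cells were shallower than macrophage-like cells, so equal CPM need not mean an equal part from free RNA. Timp3, in contrast, was found at like levels in endothelial-like cells (235 and 245), pericyte-like cells (255 and 223) and fibroblast-like cells (231 and 210), whose intervals overlapped, and at 1.22 and 0.94 in Ptprc-low cells. Cells of the vessel wall and stroma thus held the matrix-bound inhibitor, and 54.2% and 59.2% of its UMIs lay in fibroblast-like cells.

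Within the macrophage-like class the levels of Mmp12 differed widely by cluster. Cluster 28, led by Mmp12, Arg1, which encodes arginase 1, and Hmox1, which encodes heme oxygenase 1, had 855 and 705. Cluster 38, led by Arg1, Il1b and Cxcl2, had 689 and 549. Clusters 11 and 23 had 7.60 and 7.36, and 19.1 and 9.91. Clusters 28 and 38 also had the highest Arg1 levels, at 999.5 and 1361 CPM over both reactions, though Arg1 was among the genes used to cluster.

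Mmp13 followed Mmp12 in clusters 28 (149 and 77.1) and 38 (125 and 174) but not in cluster 27 (28.4 and 40.7), where Mmp12 stood at 354 and 400. Mmp19 had another place. Cluster 40, led by the chemokine genes Ccl6 and Ccl8 and by Lyz2, had 185 and 146 of Mmp19, cluster 38 had 52.1 and 51.6, cluster 15 had 19.1 and 28.1, and the rest had at most 14.0. Cluster 40 was also highest for Timp2, at 614 and 541, and had 270 and 344 of Mmp12 (223 and 217 without its highest cell) but only 12.5 and 0 of Mmp13.

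Fibroblast-like cells were uneven as well. Mmp13 was concentrated in cluster 51, led by Col1a1, Col1a2 and Mmp3, at 363 and 283, and in cluster 58, led by Col12a1, Postn and the contractile genes Tagln and Acta2, at 100 and 452. Cluster 51 was also highest for Mmp14, at 2894 and 3118. Clusters 39 and 47, led by Plac9, Clec3b and Pi16, had the least Mmp3 (351 and 312, and 412 and 382), no more than 1.81 of Mmp13, and 436 and 413 and 355 and 331 of Timp3. Timp1 was high in cluster 56, led by the acute-phase and inflammation genes Saa3, Tnfaip6 and Ptx3, at 1442 and 565, and in cluster 58, at 775 and 678. A single cell held 232 of the 476 UMIs of cluster 56 in reaction 1 and 72 of the 174 UMIs of cluster 58 in reaction 2, and without the highest cell the values were 782 and 466 in cluster 56 and 664 and 417 in cluster 58. Cluster 39 had 57.8 and 109.

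**Figure D2:**
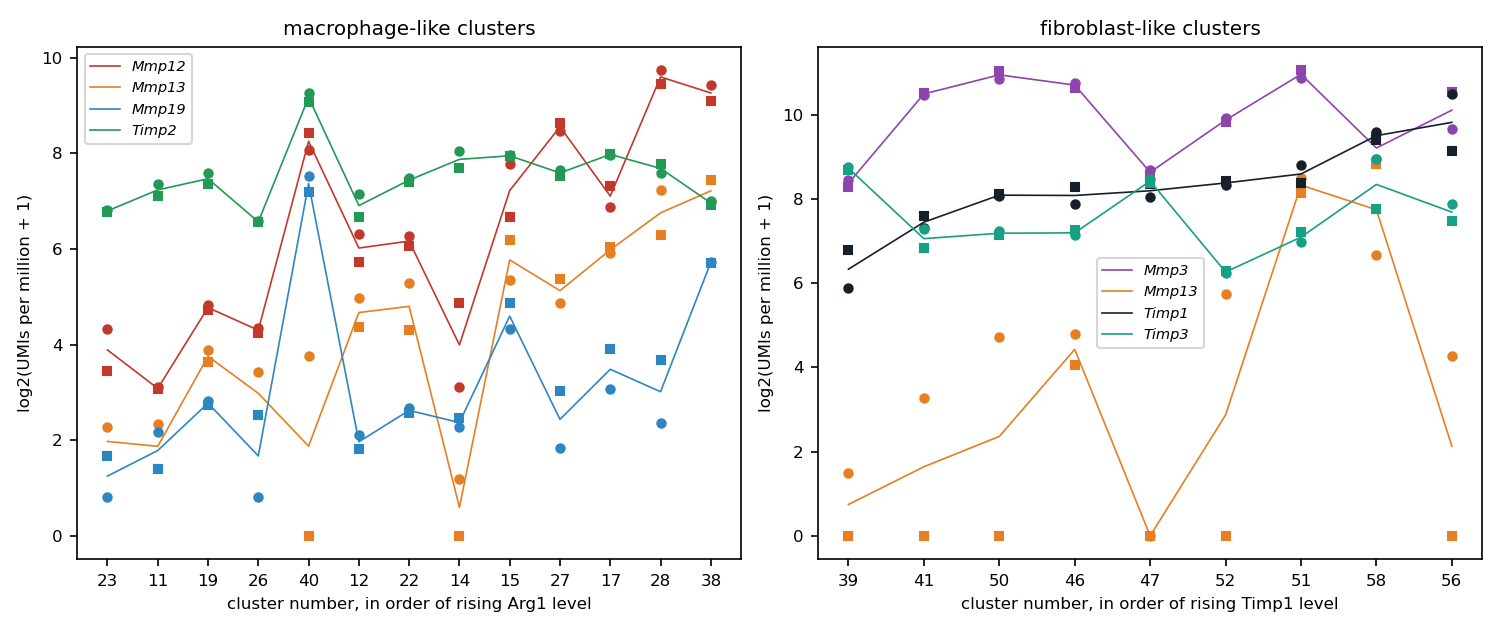
Level of 4 genes in each macrophage-like cluster (left, ordered by Arg1) and each fibroblast-like cluster (right, ordered by Timp1), as log2 of CPM plus 1; circles are reaction 1, squares reaction 2 and lines join the means of the 2 reactions. Mmp12 runs from 7.36 in cluster 11 to 855 in cluster 28, Mmp19 peaks in cluster 40, and Mmp13 in fibroblast-like cells is high in clusters 51 and 58.

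In Ptprc-low cells Mmp2, Mmp9 and Mmp14 differed between clusters together, whereas Timp1 differed little. In the 5 clusters high in H19, an imprinted noncoding RNA (at least 500 CPM), Mmp2 ran from 145 to 373, Mmp9 from 93.5 to 176 and Mmp14 from 277 to 439. In the 5 clusters below that limit Mmp2 ran from 20.3 to 117, Mmp9 from 5.19 to 76.7 and Mmp14 from 71.9 to 236. Timp1 ran from 94.6 to 163 and from 78.3 to 118. Timp2 also differed between clusters. Below that limit it stood at 281 and 303 in cluster 1 and 282 and 283 in cluster 2, but at 588 and 643 in cluster 5. Cluster 8, high in H19, had 629 and 707. Cluster 18, led by Enpp2, Aqp1 and Ly6c1, was highest for Mmp2 (373 and 344), Mmp9 (176 and 143), Mmp14 (427 and 439) and Mmp19 (20.5 and 17.7). Its Mmp3 stood at 14.9 and 36.1, but a single cell held 54 of 76 and 109 of 224 UMIs, and without it the values were 4.32 and 18.6. H19-high clusters made up 36.0% of Ptprc-low cells in isotype, 26.3% in isotype + ABT-317, 23.3% in CPI + ABT-317 and 21.3% (35 cells) in CPI.

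The study asked how ABT-317 after CPI changed the tumor. For the 10 genes this could be tested in the macrophage-like and the Ptprc-low classes, which had at least 20 cells in all 8 sums of cells (4 treatments in 2 reactions). Counts were summed per treatment and reaction and tested with edgeR's quasi-likelihood test with the reaction as a block, with Benjamini-Hochberg adjustment over all genes tested in a class, and a call is an adjusted p under 0.05. Fold changes are log2 with SE. The 4 comparisons share sums with each other and are not independent.

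In macrophage-like cells CPI went with more Mmp19, Timp1, Timp2 and Mmp12. Of 8 genes tested, 5 rose and 2 fell between isotype and CPI, where 30.6% of all 9103 genes were called. The median log2 fold change of the 8 was 1.14, against 0.01 over all genes. Mmp3 and Timp3 were too low to be tested.

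Mmp19 stood at 3.78 and 5.00 CPM in isotype and at 134 and 122 in CPI. The log2 fold change was 4.83 ± 0.21 (adjusted p = 1.6e-14). Mmp19 is a stromelysin-like enzyme of basement membranes. Timp2 rose from 175 and 159 to 457 and 415, a log2 fold change of 1.32 ± 0.10 (adjusted p = 3.4e-10). Both CPI values stood above the 196 and 135 of T-like cells. Timp1 rose from 10.5 and 7.40 to 37.4 and 34.6, a log2 fold change of 1.92 ± 0.28 (adjusted p = 7.4e-06), on 28 and 17 UMIs in CPI. T-like cells had 26.3 and 13.9 of Timp1, so the CPI values lay near this background.

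Mmp12 rose from 93.0 and 94.2 to 199 and 274, a log2 fold change of 1.23 ± 0.17 (adjusted p = 5.1e-06). Calls of Mmp19, Timp2, Timp1 and Mmp12 held in all 17 alternatives. Mmp14 did not differ beyond its error, with 234 and 232 in isotype, 251 and 262 in CPI and a log2 fold change of 0.07 ± 0.11. Mmp13 was lower in CPI, at 13.4 and 14.2 on 10 and 7 UMIs against 27.5 and 20.7, with a log2 fold change of -0.91 ± 0.33 and adjusted p = 0.043, a call that was lost in 8 of 17 alternatives.

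The calls of Mmp2 and Mmp9 were less firm. Mmp2 had a log2 fold change of 1.06 ± 0.31 (adjusted p = 0.0100), at levels up to 36.1 that lay near those of T-like cells, and its call was lost in 6 of 17 alternatives. Mmp9 had -1.505 ± 0.497 (adjusted p = 0.024), but a single cell held 103 of the 210 UMIs of isotype in reaction 2 and another held 46 of 190 in reaction 1. Without the highest cell of each sum Mmp9 no longer passed the filter on low counts and was not tested.

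The macrophage-like cells of the groups differed in makeup. Cluster 40 held 44.9% of those in CPI and 0.015%, 0.218% and 0.722% in isotype, isotype + ABT-317 and CPI + ABT-317, and cluster 15 held 32.4% in CPI against 7.21% to 9.38% elsewhere. Cluster 38, high in Mmp12 and Mmp13, held 16.9% in CPI and 0.879% in isotype. The median UMI count of a cell was 1671 and 1955 in CPI and between 3320 and 4134 in the other groups. The 10 fibroblast markers, of which 9 or 10 were seen in each sum, added up to 1076 and 681 CPM in CPI and to between 233 and 543 elsewhere. The 9 T cell markers, of which 7 to 9 were seen, added up to 62.8 and 61.0 in CPI and to between 10.9 and 25.03 elsewhere. When only cells with no UMI of the 3 leading markers of each other lineage were kept, the log2 fold changes were 4.64 for Mmp19 (adjusted p = 1.2e-10), 1.43 for Timp2 (1.1e-08), 2.73 for Timp1 (4.4e-05) and 1.35 for Mmp12 (0.00063), and the calls of Mmp2, Mmp9 and Mmp13 were lost.

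**Figure D3:**
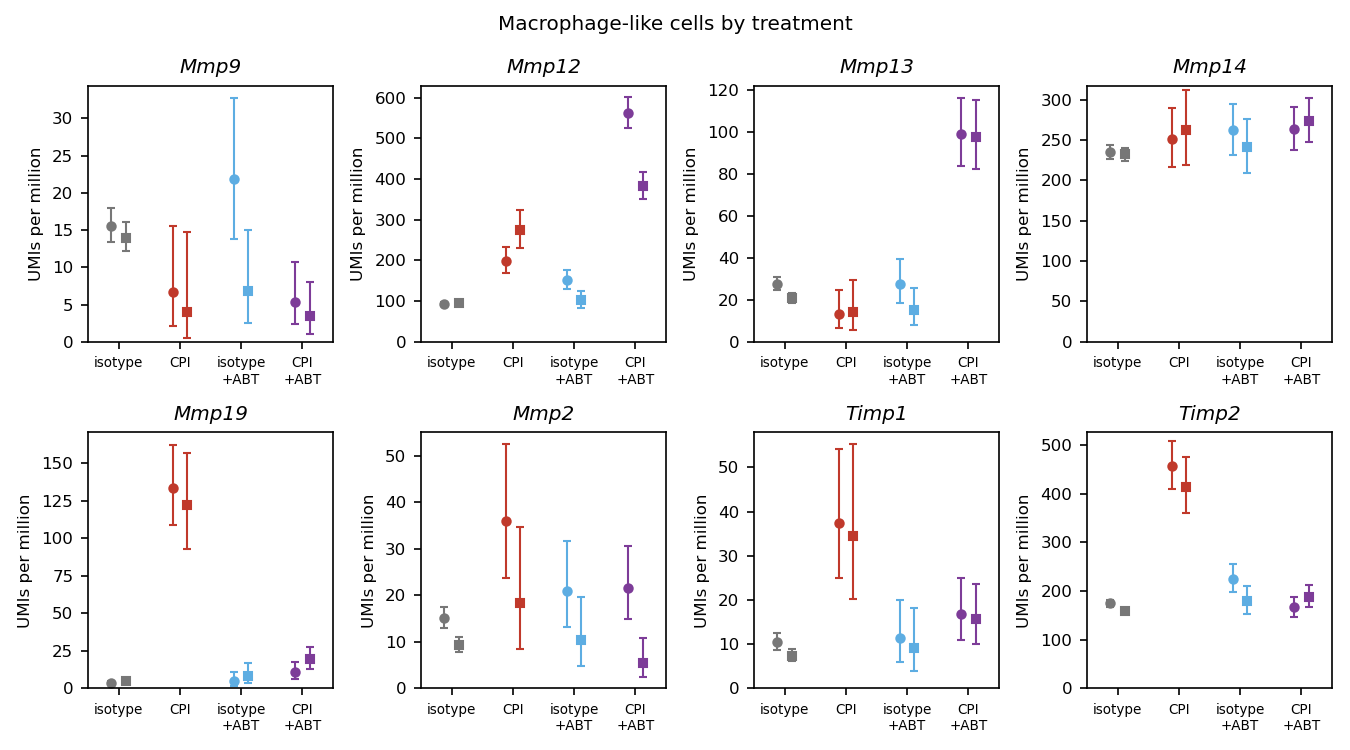
CPM of 8 genes in macrophage-like cells by treatment; circles are reaction 1, squares reaction 2, and whiskers are exact Poisson 95% intervals, which cover counting error only. Mmp19 is high in CPI alone, at 134 and 122, whereas Mmp13 is high in CPI + ABT-317 alone, at 98.8 and 97.5.

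Where ABT-317 followed CPI, macrophage-like cells had less Mmp19, Timp2 and Timp1 and more Mmp13 and Mmp12 than in CPI. Of 8 genes tested, 2 rose and 3 fell, where 18.6% of all genes were called. Their median log2 fold change was -0.59, against -0.01 over all genes.

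Mmp13 stood at 98.8 and 97.5 in CPI + ABT-317, on 146 and 142 UMIs, against 13.4 and 14.2 in CPI. Its log2 fold change was 2.94 ± 0.29 (adjusted p = 3.8e-08). The highest single cell held 13 of the 146 and 12 of the 142 UMIs, and the thinned share of cells with a UMI was 6.32% and 8.47%, against 0.72% and 0.60% in CPI. Mmp12 stood at 563 and 383 against 199 and 274, a log2 fold change of 1.10 ± 0.17 (adjusted p = 2.6e-05). For Mmp12 the thinned shares were 22.4% and 17.9% against 7.97% and 8.43%.

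Mmp19 was at 10.8 and 19.2 and fell by 3.06 ± 0.24 on the log2 scale (adjusted p = 1.3e-09). Timp2 was at 166 and 189, within the range of T-like cells, and fell by 1.23 ± 0.12 (adjusted p = 2.6e-08). Timp1 was at 16.9 and 15.8, also within the range of T-like cells, and fell by 1.04 ± 0.31 (adjusted p = 0.019). Its call was lost in 4 of 17 alternatives, while those of the other 4 genes held in all 17. Mmp14 was at 263 and 273, with a log2 fold change of 0.13 ± 0.11. Mmp12 and Mmp13 were high in clusters 28 and 38, which held 9.38% and 19.2% of the macrophage-like cells in CPI + ABT-317 and 1.09% and 16.9% in CPI.

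ABT-317 without CPI gave no call among the 8 genes in macrophage-like cells. With edgeR, 0 were called and 2 had an unadjusted p under 0.05, DESeq2 called 0 with 0 at an unadjusted p under 0.05, and 0.571% of all genes were called. The log2 fold change was 0.40 ± 0.17 for Mmp12 (adjusted p = 0.55), -0.20 ± 0.24 for Mmp13 and 0.24 ± 0.11 for Timp2.

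Against isotype + ABT-317, CPI + ABT-317 had more Mmp12 and Mmp13. Of 8 genes 2 rose and 1 fell, where 5.21% of all genes were called. Mmp12 stood at 152 and 102 in isotype + ABT-317 and its log2 fold change was 1.92 ± 0.17 (adjusted p = 1.7e-08). Mmp13 stood at 27.5 and 14.9, with 2.23 ± 0.22 (adjusted p = 2.0e-07). Both calls held in all 17 alternatives. Cluster 38 held 1.53% of the macrophage-like cells in isotype + ABT-317 and 19.2% in CPI + ABT-317, and cluster 28 held 6.55% and 9.38%. Mmp19 was at 4.74 and 8.03 on 5 and 7 UMIs, with 1.29 ± 0.45 and no call (adjusted p = 0.10). Mmp9 had -1.69 ± 0.49 (adjusted p = 0.042), with 18 of its 23 and 6 of its 6 UMIs in isotype + ABT-317 in a single cell each, and its call was lost in 7 of 15 alternatives.

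**Figure D4:**
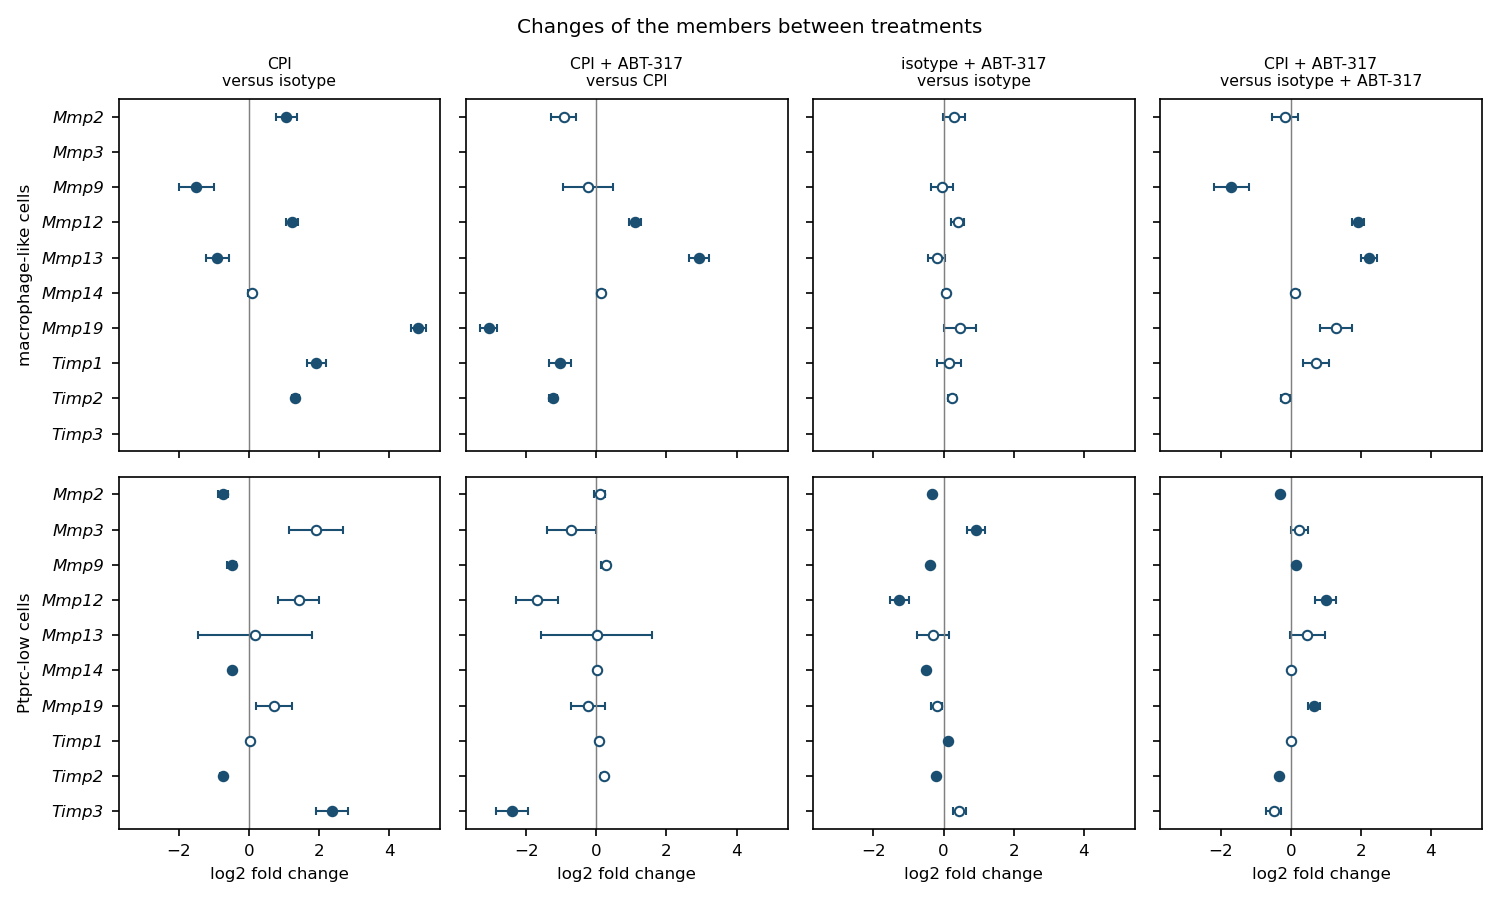
Log2 fold change of each gene in the 4 comparisons (columns) for macrophage-like cells (top) and Ptprc-low cells (bottom), with SE; filled points have an adjusted p under 0.05 by edgeR's quasi-likelihood test. In macrophage-like cells Mmp19 and Timp2 rise with CPI and fall with ABT-317 after CPI, and Mmp13 rises with ABT-317 after CPI; Timp2, Mmp14, Mmp2 and Mmp9 in Ptprc-low cells lie between -0.75 and 0.27.

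In Ptprc-low cells Mmp2, Mmp9, Mmp14 and Timp2 were highest in isotype tumors. Between isotype and CPI 4 genes fell and 1 rose of 10 tested, where 15.4% of all 15483 genes were called. Their median log2 fold change was 0.10, against -0.05 over all genes. CPI had 117 and 47 such cells, against 3527 and 3561 in isotype, so the values of CPI had the widest intervals.

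Timp2 stood at 472 and 497 in isotype and at 333 and 242 in CPI. Its log2 fold change was -0.75 ± 0.07 (adjusted p = 5.1e-08). Mmp14 stood at 205 and 208 against 149 and 157, with -0.49 ± 0.06 (adjusted p = 3.5e-06). These are the partners in the activation of Mmp2, and both calls held in all 15 alternatives. Mmp2 itself stood at 90.4 and 96.2 against 54.1 and 64.2, with -0.74 ± 0.14 (adjusted p = 0.00075). Mmp9 stood at 51.3 and 50.4 against 35.6 and 40.9, with -0.50 ± 0.13 (adjusted p = 0.0094).

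Timp1 did not differ beyond its error, at 99.9 and 110 in isotype and 110 and 112 in CPI, with a log2 fold change of 0.04 ± 0.07 (adjusted p = 0.79). Timp3 rose with 2.36 ± 0.45 (adjusted p = 0.00055), but on 14 and 4 UMIs in CPI. The CPI sums of this class also held more T cell markers, 21.3 and 10.4 CPM against 0.76 to 1.69 in the other groups. Endothelial markers added up to 31.9 and 28.9 against 17.0 to 23.4, and pericyte markers to 42.5 and 4.01 against 9.24 to 12.1. Endothelial-like and pericyte-like cells were among the classes highest in Timp3. Col1a1 was higher in CPI by 2.08 ± 0.12 on the log2 scale. The part of these other lineages in the Timp3 value was not tested. Without CPI in reaction 1 the calls of Mmp2, Mmp9 and Timp3 were lost. Those of Mmp9 and Timp3 were also lost with hashtags called from plain log counts, and that of Mmp9 without the reaction as a block. H19-high clusters, where Mmp2, Mmp9 and Mmp14 stood highest, held 36.0% of the isotype and 21.3% of the CPI cells. Within H19-low clusters 3 of 10 genes fell and 2 rose (11.5% of all genes called), with Timp2 at -0.85 ± 0.08, Mmp2 at -0.62 ± 0.14 and Mmp14 at -0.46 ± 0.08 among those that fell, while Mmp9 had 0.17 ± 0.16 (adjusted p = 0.57). The CPI cells of H19-high clusters were too few to be tested.

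**Figure D5:**
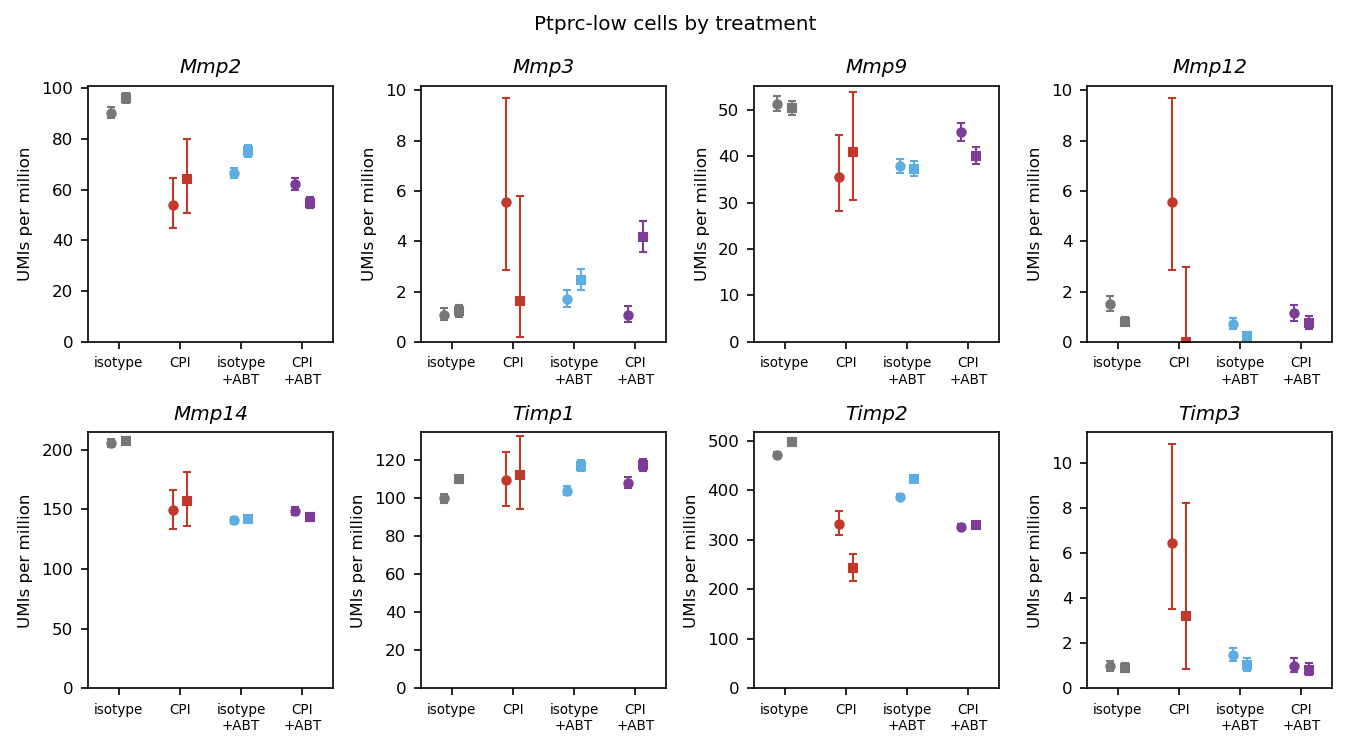
CPM of 8 genes in Ptprc-low cells by treatment; circles are reaction 1, squares reaction 2, and whiskers are exact Poisson 95% intervals, which cover counting error only. Mmp2, Mmp9, Mmp14 and Timp2 are highest in isotype, Timp1 lies between 99.9 and 117 throughout, and Mmp3, Mmp12 and Timp3 are near 0.

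ABT-317 after CPI left 9 of the 10 genes of Ptprc-low cells without a call, where 8.37% of all genes were called. Timp3 fell by 2.40 ± 0.46 on the log2 scale (adjusted p = 0.0010), to 1.00 and 0.83. This call was lost without CPI in reaction 1 and with hashtags called from plain log counts. Timp2 was at 326 and 330, with 0.21 ± 0.08 (adjusted p = 0.089), and Mmp14 at 148 and 143, with 0.02 ± 0.07. Without the highest cell of each sum Timp2 (0.32 ± 0.09, adjusted p = 0.021) and Mmp9 (0.56 ± 0.14, adjusted p = 0.012) were called higher after ABT-317. This removal took more from the CPI sums, which had 117 and 47 cells against 1988 and 1574. Mmp9 went from 35.6 and 40.9 to 30.4 and 31.4 in CPI. In CPI + ABT-317 it went from 45.1 and 40.1 to 44.5 and 39.4. These calls therefore cannot be told apart from the unequal removal. Within H19-low clusters 1 of 10 genes rose and 3 fell (7.40% of all genes called). Timp2 rose by 0.32 ± 0.08 (adjusted p = 0.010), and the genes that fell were the low genes Timp3 (-2.60 ± 0.64), Mmp3 (-2.90 ± 0.62) and Mmp12 (-2.08 ± 0.60).

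ABT-317 without CPI went with less Mmp2, Mmp9, Mmp14, Mmp12 and Timp2 in Ptprc-low cells. In isotype + ABT-317 against isotype these 5 of 10 genes fell and Mmp3 and Timp1 rose, where 25.3% of all genes were called. Mmp14 fell to 141 and 142, by 0.49 ± 0.03 on the log2 scale (adjusted p = 3.0e-11). Mmp9 fell to 37.8 and 37.3, by 0.38 ± 0.04 (adjusted p = 8.7e-08), and Mmp2 to 66.5 and 75.4, by 0.34 ± 0.05 (adjusted p = 4.6e-06). The groups did not overlap in any of these 3. How often this held over all genes was not counted, so it is not read as a result about these genes. Timp2 fell to 386 and 423, by 0.20 ± 0.04 (adjusted p = 0.00060).

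Timp1 rose by 0.13 ± 0.03 (adjusted p = 0.00076), to 104 and 117. The low genes Mmp12 (-1.26 ± 0.27) and Mmp3 (0.93 ± 0.25) were called at levels of at most 1.501 and 2.45. For Mmp3 a single cell held 54 of 109 and 69 of 136 UMIs in isotype + ABT-317, and without the highest cell of each sum its log2 fold change was 0.58 (adjusted p = 0.18). No call of this comparison held without the reaction as a block. Below 2500 genes per cell, the limit in the study's methods, only 5 of the 10 genes could be tested. These were Mmp14, Mmp9, Mmp2, Timp2 and Timp1, whose calls were lost too, with Mmp2 at 0.12 (adjusted p = 0.99). The median UMI count of Ptprc-low cells was 18730 and 22979 in isotype and 21866 and 27659 in isotype + ABT-317. The limit thus kept the shallower cells, and calls lost there cannot be told apart from lost counts. DESeq2 did not call Timp2, Mmp12 and Mmp3.

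The share of H19-high clusters, where Mmp2, Mmp9 and Mmp14 stood highest, was lower in isotype + ABT-317, and the comparison was repeated within both kinds of cluster. Within H19-high clusters 2 genes fell and 2 rose of 9 tested (8.00% of all genes called), and within H19-low clusters 5 fell of 10 (14.7%). Mmp14 fell in both, by 0.31 ± 0.03 (adjusted p = 5.3e-06) and by 0.42 ± 0.03 (adjusted p = 7.0e-11), and so did Timp2. Mmp2 had -0.02 ± 0.06 and Mmp9 -0.08 ± 0.05 within H19-high clusters, with no call, and fell by 0.29 ± 0.04 and 0.29 ± 0.05 within H19-low clusters. Timp1 rose by 0.27 ± 0.04 within H19-high clusters. Whether the kinds of cluster differed in these changes was not tested.

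Between CPI + ABT-317 and isotype + ABT-317, 2 genes of Ptprc-low cells fell and 3 rose, where 27.8% of all genes were called. Timp2 fell by 0.34 ± 0.04 (adjusted p = 1.1e-06) and Mmp2 by 0.31 ± 0.05 (adjusted p = 5.5e-05), to 62.3 and 54.8. Mmp9 rose by 0.15 ± 0.04 (adjusted p = 0.0095), to 45.1 and 40.1, and Mmp14 had 0.01 ± 0.03. Mmp19 (0.67 ± 0.17) and Mmp12 (1.00 ± 0.31) were called at levels of at most 2.54 and 1.13, and the call of Mmp12 was lost without the highest cell of each sum. All 5 calls were lost without the reaction as a block. DESeq2 did not call Timp2, Mmp9 and Mmp12 here. The calls of Mmp9 and Mmp19 were lost without reaction 1 of either group, and that of Mmp12 without reaction 2 of either group. Those of Timp2, Mmp2 and Mmp9 were also lost below 2500 genes per cell, where only 5 genes could be tested and lost counts could not be told apart. Within H19-high clusters 3 of 9 genes rose (11.4% of all genes called) and within H19-low clusters 1 rose and 3 fell of 10 (27.1%). Mmp2 had -0.05 ± 0.06 in the former and -0.42 ± 0.04 (adjusted p = 2.3e-08) in the latter.

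Whether ABT-317 changed a gene differently beside CPI than beside isotype was tested as the difference of the 2 changes. In macrophage-like cells 3 of 8 genes differed (11.4% of all genes called), Mmp13 by 3.14 ± 0.38, Mmp19 by -3.53 ± 0.63 and Timp2 by -1.47 ± 0.16. In Ptprc-low cells 4 of 10 differed (8.16% of all genes called), which were Mmp14 (0.51 ± 0.07), Timp2 (0.41 ± 0.09), Mmp9 (0.65 ± 0.14) and Timp3 (-2.85 ± 0.50).

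Fibroblast-like cells could be compared between treatments by their values only, since 10 to 28 cells per reaction were found outside CPI. Their median UMI count was 4250 and 5012 in CPI and between 6042 and 7384 in the other groups, and no doublet caller was run. Mmp14 stood at 1623 and 1600 in CPI, 785 and 877 in isotype, 865 and 655 in isotype + ABT-317 and 1122 and 1484 in CPI + ABT-317. Mmp2 stood at 1911 and 2017 in CPI and between 907 and 1792 in the other groups. Timp1 had the other order, with 257 and 261 in CPI, 795 and 988 in isotype, 3005 and 1412 in isotype + ABT-317 and 900 and 535 in CPI + ABT-317. A single cell held 232 of the 358 Timp1 UMIs behind the value of 3005 and another 72 of the 107 behind that of 988. Without the highest cell of each sum Timp1 stood at 251 and 253 in CPI, 564 and 364 in isotype, 1247 and 1089 in isotype + ABT-317 and 689 and 447 in CPI + ABT-317. The groups lay in different clusters. Clusters 39 and 41, low in Timp1, held 17.5% and 16.1% of the fibroblast-like cells in CPI, 5.13% and 5.13% in isotype, 0 and 0 in isotype + ABT-317 and 5.88% and 1.96% in CPI + ABT-317. Cluster 58 held 4.16% in CPI and 30.8%, 16% and 35.3% in those groups. Mmp3 did not separate the groups, with 1145 and 1236 in CPI and between 671 and 1980 in the rest, where 81 of the 136 UMIs behind the value of 1980 lay in a single cell.

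Genes around the metalloproteinases moved as well. The shares of all genes called, against which the counts of the next lists can be read, were 30.6% with CPI, 18.6% with ABT-317 after CPI, 0.571% with ABT-317 alone and 5.21% between the ABT-317 groups in macrophage-like cells, and 15.4%, 8.37%, 25.3% and 27.8% in Ptprc-low cells. Of the 8 AP-1 genes all 8 fell in macrophage-like cells from CPI to CPI + ABT-317, among them Fosb (by 1.45 ± 0.11 on the log2 scale), Jun (by 1.22 ± 0.09), Jund (by 1.12 ± 0.09) and Fos (by 0.85 ± 0.08). Their median log2 fold change was -1.003, against -0.01 over all genes. Mmp13 and Mmp12 rose in the same comparison. The AP-1 letters shown above lie in the Mmp13 window and in the second of the 2 Mmp12 windows. Whether AP-1 acts on these genes in these cells was not tested. From isotype to isotype + ABT-317 5 of the 8 fell in macrophage-like cells, among them Jun (by 0.73 ± 0.09) and Atf3 (by 0.56 ± 0.08), and 0 of the metalloproteinases were called. From isotype to CPI 6 rose and 1 fell, among them Fosb at 1.52 ± 0.10, while Mmp12 rose and Mmp13 was lower. In Ptprc-low cells 6 AP-1 genes fell and 1 rose from isotype to isotype + ABT-317, with Jun lower by a log2 fold change of -0.39 ± 0.03, 5 rose and 1 fell with CPI, 5 fell and 0 rose from CPI to CPI + ABT-317, and 6 rose and 0 fell between the ABT-317 groups. The median log2 fold changes of the list were -0.29, 0.45, -0.32 and 0.26 in these 4 comparisons, against -0.00, -0.05, 0.05 and -0.01 over all genes.

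Of 19 genes that activate metalloproteinases or bind them, 13 were tested in macrophage-like cells. From isotype to CPI 7 rose and 3 fell, with a median log2 fold change of 0.43 against 0.01 over all genes. Cd44, a cell-surface docking site of Mmp9, had 1.499 ± 0.089, Thbs1, which encodes the matrix protein thrombospondin 1, had 2.37 ± 0.11, and Sdc1, which encodes syndecan 1, had 3.67 ± 0.30. Plau, the urokinase that generates plasmin, fell by 1.84 ± 0.13. From CPI to CPI + ABT-317 these 4 went the other way, with Thbs1 at -1.62 ± 0.12, Cd44 at -0.77 ± 0.09, Sdc1 at -1.64 ± 0.31 and Plau at 1.11 ± 0.14, and 2 rose and 5 fell in all. In isotype + ABT-317 against isotype 0 of the 13 were called by edgeR, and between the ABT-317 groups 4 rose and 1 fell.

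In Ptprc-low cells 17 genes of this list were tested. Of these, 7 rose and 4 fell with CPI, 2 rose and 6 fell with ABT-317 after CPI, 2 rose and 7 fell with ABT-317 alone, and 5 rose and 4 fell between the ABT-317 groups. Their medians were 0.23, -0.20, -0.15 and -0.03. Plaur, the urokinase receptor, rose with CPI (1.10 ± 0.08) and fell with ABT-317 after it (by 0.61 ± 0.08).

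Of 18 matrix proteins that these enzymes cut, 14 were tested in macrophage-like cells, and 10 rose and 1 fell with CPI. Col1a1 (1.61 ± 0.17) and Col3a1 (1.14 ± 0.12), which are also markers of fibroblasts, were among those that rose, and Spp1, osteopontin, fell by 1.10 ± 0.10. With ABT-317 after CPI 1 rose (Spp1, 1.51 ± 0.11) and 6 fell, with ABT-317 alone 2 rose and 0 fell, and between the ABT-317 groups 0 rose and 1 fell. In Ptprc-low cells 18 were tested. There 4 rose and 9 fell with CPI, 4 rose and 3 fell with ABT-317 after CPI, 1 rose and 11 fell with ABT-317 alone, and 3 rose and 8 fell between the ABT-317 groups, with medians of -0.36, 0.16, -0.17 and -0.07. Fn1, fibronectin, fell with CPI by 0.92 ± 0.05.

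None of the 17 other family members passed the filter on low counts in macrophage-like cells, and 6 did in Ptprc-low cells. Mmp11, stromelysin 3, fell with CPI (by 0.97 ± 0.19) and with ABT-317 alone (by 0.22 ± 0.04). Mmp16, another membrane-type enzyme, fell with CPI (by 0.77 ± 0.20) and with ABT-317 alone (by 0.30 ± 0.05). Mmp23 was called up with CPI at 3.01 ± 0.76, 0 of the 6 were called with ABT-317 after CPI, and 1 rose and 2 fell between the ABT-317 groups.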

How the data were processed

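The authors deposited raw UMI counts per gene and barcode for 2 MC38 tumor reactions, without normalization. The file header names Cell Ranger 8.0.1, the submitters' processing notes name Cell Ranger 3.1.0 with GRCm38 and mm10, and the methods name other versions. Lymph node reactions were not used here.

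Barcodes with at least 200 genes and under 10% mitochondrial counts were kept. The upper limit of 2500 genes in the study's methods, which 10074 and 6832 of the barcodes with 1 hashtag met, was an alternative. Treatments came from the deposited hashtag key. A hashtag counted as present at 1 natural log unit or more above its background. This rule replaced a planned fit of 2 normal curves to plain log counts, which was kept as an alternative. Barcodes with several hashtags were dropped as doublets, and no doublet caller was run. K-means (60 clusters, 50 components, 3000 variable genes) replaced a marker-started clustering that had been planned, and classes were named from 18 marker lists by a rule chosen after the clusters were seen: mean log2 enrichment of at least 2, at least 3 markers, no other lineage at 1.5 or more. Members and lists were chosen with earlier results of these data known. All 10 members are named, with at most 4 called genes, by adjusted p, per wider list and comparison, and for each member the 3 genes nearest to it, except 2 genes that are not reported here.

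Summed counts were tested in edgeR 4.0.16 (R 4.3.3; TMM, filterByExpr) with the reaction as a block, since the series' design gives reactions with equal hashtags for batch correction; each treatment's reaction 1 is therefore paired with the others' reaction 1. Scripts were tested on simulated data. Alternatives were DESeq2 1.42.0, RLE factors, no filter, no block, the gene limit and other hashtag calls, among them the planned one from plain log counts. Cells free of other lineages' markers and single sums left out were alternatives as well. Added after seeing the data were each member without its highest cell (tests and levels), H19 subclasses and the interaction of CPI with ABT-317. Python 3.11.15 and scikit-learn 1.9.0 were used. Intervals and floors cover counting error only.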

Additional observations from a re-analysis of the deposited data

Results flagged for a closer look

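The change with ABT-317 beside CPI was set against the change with ABT-317 beside isotype in the same edgeR fit, and 7 of 18 gene and class pairs differed (11.4% of all genes in macrophage-like cells and 8.16% in Ptprc-low cells were called in this test). In macrophage-like cells the difference of the log2 changes was 3.14 for Mmp13 (adjusted p = 2.8e-06), -3.53 for Mmp19 (adjusted p = 0.00037) and -1.47 for Timp2 (adjusted p = 4.9e-07). Mmp13 went from 13.4 and 14.2 to 98.8 and 97.5 CPM beside CPI and from 27.5 and 20.7 to 27.5 and 14.9 beside isotype. Mmp12 rose with ABT-317 beside CPI, but the difference of its changes, 0.70 ± 0.24, was not called (adjusted p = 0.060).

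In Ptprc-low cells the difference was 0.51 for Mmp14 (adjusted p = 2.2e-05), 0.41 for Timp2 (adjusted p = 0.0025), 0.65 for Mmp9 (adjusted p = 0.0027) and -2.85 for Timp3 (adjusted p = 0.00040). Mmp14 went from 205 and 208 to 141 and 142 CPM beside isotype and from 149 and 157 to 148 and 143 beside CPI. The value of Timp3 rests on 14 and 4 UMIs in CPI.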

How the results depend on the processing

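Of 18 tested pairs of a gene and a class, 12 were called between isotype and CPI, 6 between CPI and CPI + ABT-317, 7 between isotype and isotype + ABT-317, 8 between the ABT-317 groups and 7 in the difference of the ABT-317 changes. Leaving out 1 sum in turn gave 6 to 13, 5 to 9, 5 to 7, 5 to 8 and 5 to 10 calls, with 6 without CPI in reaction 1 and 5 without isotype + ABT-317 in reaction 1. Without the replicate block 0 pairs were called between isotype and isotype + ABT-317 (3 at an unadjusted p under 0.05), 2 between the ABT-317 groups and 4 in the difference of changes; the cause was not tested. DESeq2 called 4 and 4 in the first 2 of these. Below 2500 genes per cell, which leaves too few CPI cells in the Ptprc-low class, these 2 gave 0 and 2 calls. The difference of changes gave 5 in macrophage-like cells against 3. Mmp2 in Ptprc-low cells turned to 0.12 (adjusted p = 0.99) between isotype and isotype + ABT-317. Only 5 genes of Ptprc-low cells could be tested under this limit, so calls lost there cannot be told apart from lost counts. Hashtags from plain log counts, the call first planned, gave 7 calls between isotype and CPI against 12. Cells free of other lineages' markers gave 4 of 7 in macrophage-like cells. Between the ABT-317 groups Mmp3 in Ptprc-low cells, 0.25 with no call, was -0.82 without CPI + ABT-317 in reaction 2 (adjusted p = 0.015) and 0.83 without it in reaction 1. RLE factors changed no call. Marker-free cells were not run for Ptprc-low cells. Depth limits Mmp3 and Timp3 in macrophage-like cells and all genes in CPI Ptprc-low cells.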

Other observations

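Across 16 sums of a class and a reaction with at least 20 cells, the genes whose log2 levels ran most like those of a member were, by Pearson's r among 9072 candidates, Thbs2 for Mmp2 (r = 0.97), Ost4 for Mmp3 (0.99), Inhba for Mmp9 (0.94), Rassf4 for Mmp12 (0.94), Olfml3 for Mmp13 (0.94), Il11ra1 for Mmp14 (0.96), Tcea3 for Mmp19 (0.83), Pcolce for Timp1 (0.97), Aebp1 for Timp2 (0.94) and Lims2 for Timp3 (0.98). The next were Ugdh and Pcolce for Mmp2, Sfrp1 and Smoc2 for Mmp3, F3 for Mmp9, Tnfsf9 and Unc93b1 for Mmp12, Ctsk and Fuom for Mmp13, Cnpy2 and Colgalt1 for Mmp14, H6pd and Rnase4 for Mmp19, Rcn1 and Fkbp7 for Timp1, Fn1 and Gmppa for Timp2, and Tnc and Tril for Timp3. These points share libraries, the classes differ in depth, and both reactions of a class stand together, so r mostly describes differences between 8 classes.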
